A study of Saccharomyces cerevisiae with 6 samples.

Results

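The genes described here encode the heat shock proteins and chaperones of budding yeast, Saccharomyces cerevisiae. They comprise the cytosolic Hsp70, Hsp110, Hsp40 and Hsp90 proteins with their cochaperones, the disaggregase Hsp104, the small heat shock protein Hsp42, the chaperones of the mitochondrial matrix, the CCT ring and the transcription factor HSF1. The 39 genes were listed by systematic name for their function, by a rule that uses no measured value although earlier results of these data were known, and all were found among the 6212 identifiers of the deposited table. The cells were of strain mmr09-4 (cml476 background), in which a kanMX4-tetO7 cassette stands directly before the coding region of YPI1, so that doxycycline shuts off YPI1, a regulatory subunit of the protein phosphatase Glc7. Treated cultures received 100 µg/ml doxycycline in ethanol and water for 2, 4 or 6 h, and untreated cultures of the same strain received ethanol and water alone. Treated and untreated cells both carry the cassette, and a strain with the native YPI1 promoter was not analysed here, so what the drug does apart from YPI1 cannot be told apart from the loss of YPI1. In RNA from whole cultures, fewer cells of a kind and less RNA per cell cannot be told apart either.

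Chaperones bind unfolded or newly made proteins and help them to reach or regain their folded form. Hsp70 proteins do so in cycles of ATP hydrolysis that Hsp40 proteins start and nucleotide exchange factors end, Hsp90 takes over clients with the help of cochaperones, and closed chambers such as CCT and Hsp60 enclose their substrates. In yeast many of these genes are transcribed under HSF1, and several are induced by heat.

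Each value is a log2 ratio of treated over untreated cells, so that 1 is a 2-fold higher and −1 a 2-fold lower ratio. The labels do not state the log base, and log2 is assumed. Each time had 1 pair of RNA samples on 2 arrays with the dyes swapped, called replicate 1 and replicate 2. An SD beside a value is over these 2 arrays and is technical, and no p-value was computed for a single time. Over the 6 arrays YPI1 itself (YFR003C) lay between −4.06 and −6.44, which sets the direction of the ratios. The arrays held 4250 to 4804 values. Pearson's r over all genes between the dye-swapped arrays was −0.40 for 2 h, −0.17 for 4 h and 0.87 for 6 h. Between arrays of different times that had doxycycline in Cy5 it was 0.28 for 2 h and 4 h, 0.37 for 2 h and 6 h and −0.25 for 4 h and 6 h. For those with doxycycline in Cy3 it was 0.58, 0.29 and 0.22 in the same order.

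Of the 39 chaperone genes, 37 were measured on 1 or more of the arrays and 26 on all 6. HSF1 (YGL073W), the heat shock transcription factor, and YDJ1 (YNL064C), the main cytosolic Hsp40, had no value. ECM10 (YEL030W), a minor mitochondrial Hsp70, had a value on replicate 1 of 6 h and nowhere else. A pair of values was present for 28 genes at 2 h, 36 at 4 h and 33 at 6 h.

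At 2 h the mean ratios of the chaperone genes were small, but the 2 arrays did not agree. Pearson's r between them was −0.51 over the 28 genes with a pair of values. Small means therefore do not show that these genes were unchanged. The dye-swapped arrays had opposite signs for 21 of 28 genes (75%), where the share over all genes was 66.9%. The median log2 ratio of the 28 measured genes was 0.04, with 0.09 on replicate 1 and −0.07 on replicate 2, beside −0.01 for all genes. Of these 28 genes, 4 lay above 0 on both arrays (14.3%, against 16.8% of all genes) and 3 below 0 on both (10.7%, against 16.3%). The 4 genes above 0 were SSA4, HSP78, CCT6 and CCT8, and the 3 below were FES1, SIS1 and AHA1. None passed 2-fold, as against 2 of 4119 genes in all (0.0486%). The SD of the array pair was larger than the size of the mean for 23 of the 28 (82.1%), against 75.4% of all genes.

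At 4 h small ratios below 0 were common among the chaperone genes. Of 36 measured genes, 15 lay below 0 on both arrays (41.7%, against 17.5% of all genes) and 2 above 0 on both (5.56%, against 18.1%). The 15 genes were SSA2, SSB1, SSZ1, SSE1, SIS1, HSC82, STI1, CPR6, CNS1, HSP60, SSC1, TCP1, CCT3, CCT6 and CCT8, and the 2 genes above were HSP42 and HSP10. The sizes were small, with a median log2 ratio of −0.09, an array median of −0.15 on replicate 1 and −0.04 on replicate 2, and a median of 0.01 for all genes. No chaperone gene passed 2-fold or 1.5-fold at 4 h, where 3 of 4691 genes passed 2-fold lower (0.064%). The SD of the array pair was larger than the size of the mean for 24 of the 36 (66.7%), against 73.7% of all genes. Pearson's r between the 2 arrays was −0.57 over the 36 genes, against −0.17 over all genes. The lowest mean belonged to STI1, which links Hsp70 to Hsp90, with −0.37 and −0.30.

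At 6 h most chaperone genes stood well above untreated cells and a smaller set stood below. The median log2 ratio of the 33 measured genes was 0.76, with 0.68 on replicate 1 and 0.89 on replicate 2, where all genes had −0.10. On both arrays 25 of the 33 lay above 0 (75.8%, against 39.4% of all genes) and 7 below (21.2%, against 48.3%). A mean ratio of at least 2-fold with 1 sign on both arrays was reached by 13 chaperone genes on the high side (39.4%, against 9.81% of all genes) and by 2 on the low side (6.06%, against 8.08%). Past 1.5-fold there were 19 higher, against 21.1% of all genes, and 5 lower, against 28.1%. The 13 were SSA1, SSA2, SSA4, SSB2, SSZ1, SSE1, SSE2, HSP104, HSP82, STI1, HSP60, HSP78 and CCT3, and the 2 were HCH1 and HSP10. An array SD larger than the size of the mean was seen for 1 of the 33 genes (3.03%), against 18.0% of all genes. The 6 h ratios of all genes also went with coding length and chromosome, and the part of either in these values was not tested.

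**Figure D1:**
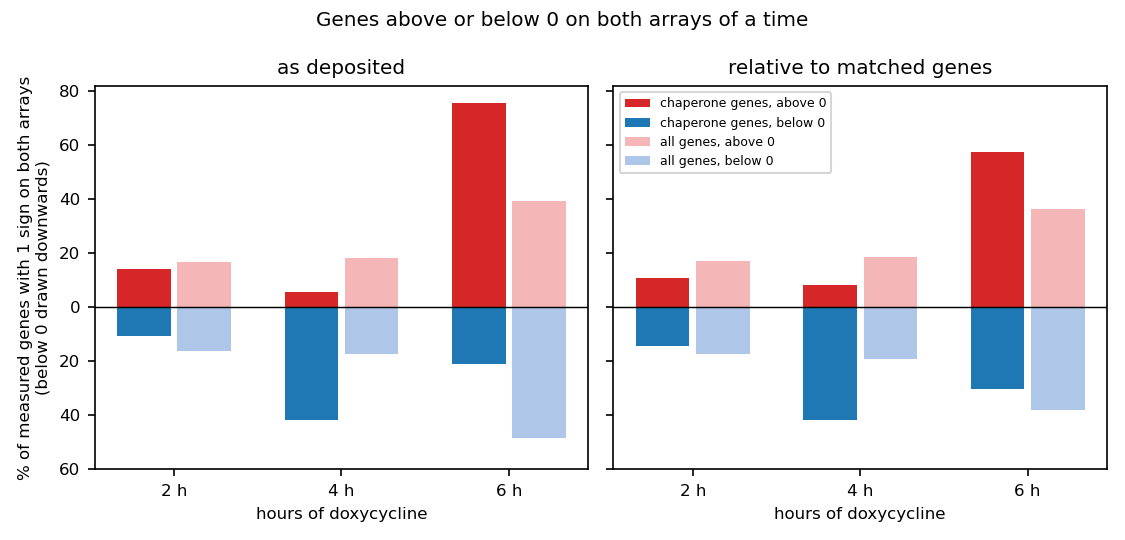
Percentage of measured genes with a log2 ratio above 0 (bars upwards) or below 0 (bars downwards) on both arrays of a time, for the chaperone genes (dark) and all genes (pale), as deposited (left) and relative to matched genes (right). At 4 h the chaperone genes below 0 stand at 41.7% in both panels, though they are not all the same genes. At 6 h the chaperone genes above 0 stand at 75.8% as deposited and 57.6% relative to matched genes.

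**Figure D2:**
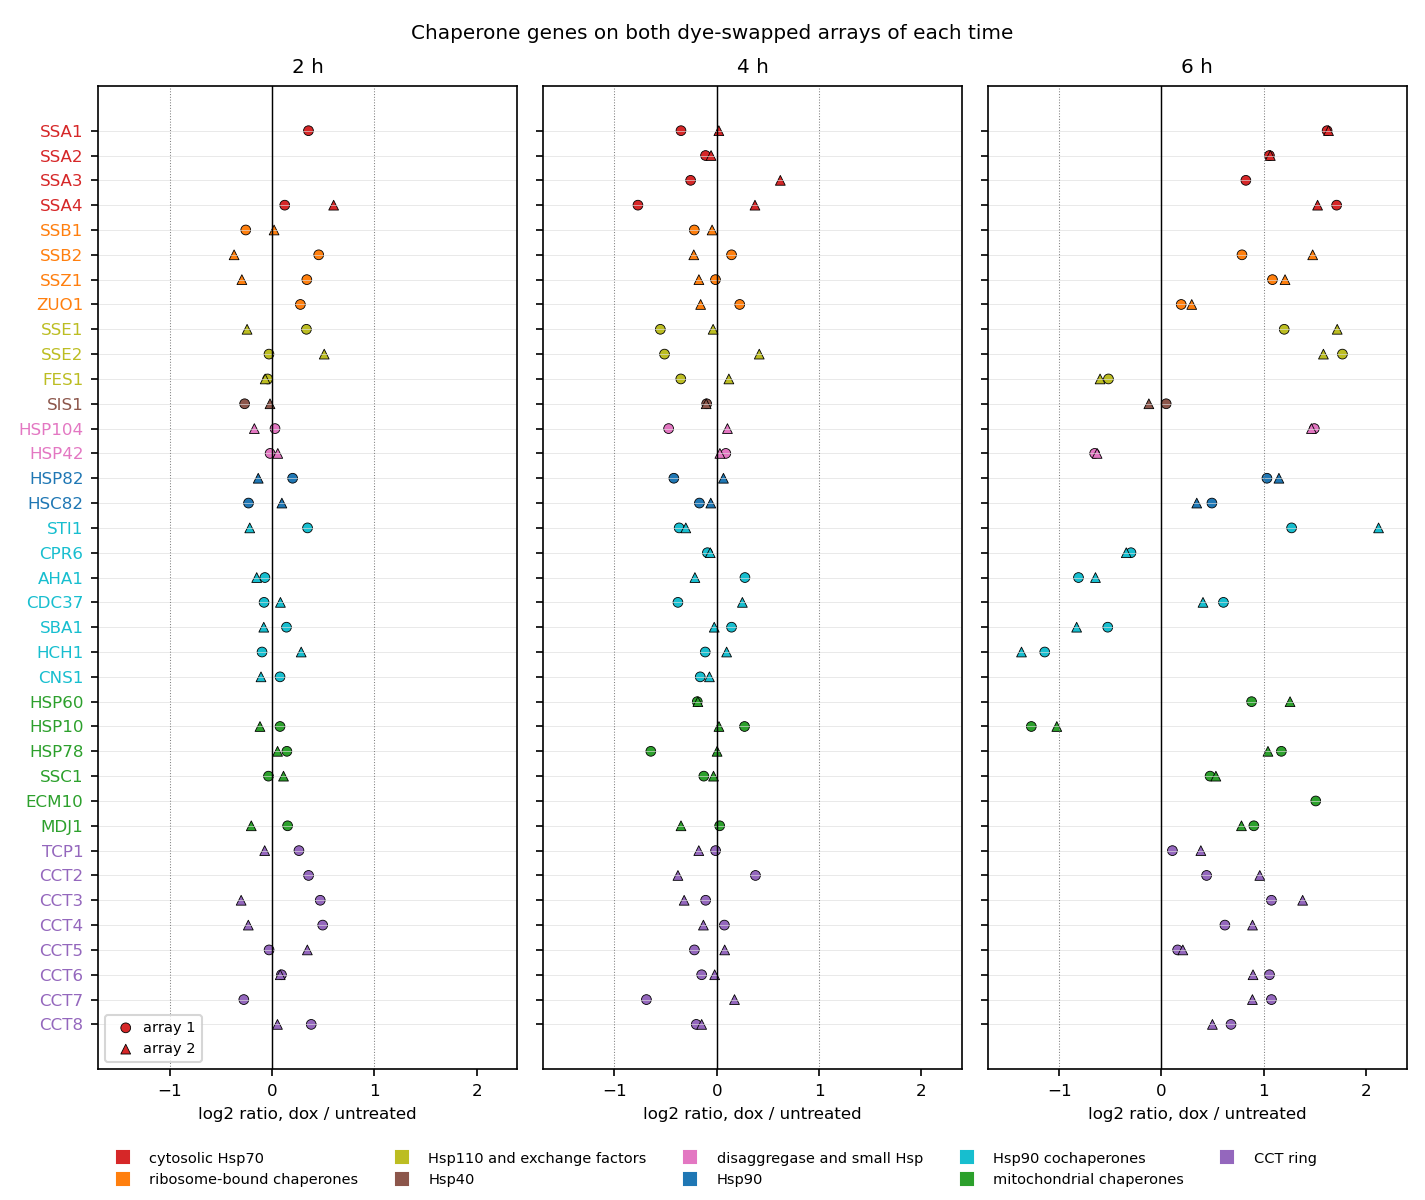
Log2 ratios of doxycycline over untreated cells (horizontal axis) for the 37 chaperone genes with any value, grouped and coloured by role, at 2, 4 and 6 h. Circles are replicate 1 and triangles replicate 2, and the dotted lines mark 2-fold. The 2 arrays lie on opposite sides of 0 for 21 of 28 genes at 2 h (75%, against 66.9% of all genes) and for 1 of 33 genes, SIS1, at 6 h (3.03%, against 12.3%).

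The cytosolic Hsp70 genes of the SSA family were among the highest at 6 h. SSA1 (YAL005C), expressed at all times and induced by heat, had log2 ratios of 1.62 and 1.63. SSA4 (YER103W), which is heat-inducible, had 1.71 and 1.53, and SSA2 (YLL024C), the constitutive copy, had 1.06 and 1.06. SSA3 (YBL075C), another inducible copy, had 0.83 on replicate 1 and no value on replicate 2. All 3 genes with a pair of values passed 2-fold on the high side, against 9.81% of all genes. SSA1 was at 3.09-fold, SSA4 at 3.07-fold and SSA2 at 2.08-fold. The same genes gave no common direction earlier. At 4 h SSA4 had −0.77 and 0.37, SSA3 had −0.26 and 0.62, and SSA1 had −0.35 and 0.02, so that their arrays lay on opposite sides of 0. At 2 h SSA4 had 0.13 and 0.60, SSA1 had 0.36 on replicate 1, and the other members had no value.

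The nucleotide exchange factors of Hsp70 split by gene. SSE2 (YBR169C), a stress-induced Hsp110, had 1.77 and 1.58 at 6 h, and SSE1 (YPL106C), its constitutive paralog, had 1.20 and 1.72. FES1 (YBR101C), an exchange factor of a different family, lay below 0 on both arrays with −0.52 and −0.60. SSE1 and SSE2 differed at 6 h by −0.22 ± 0.50, less than the spread of the 2 arrays. SIS1 (YNL007C), the essential cytosolic Hsp40, showed the values nearest 0 of any chaperone gene at 6 h, with 0.05 and −0.12, and had −0.10 and −0.10 at 4 h. At 4 h SSE1 had −0.55 and −0.04, both below 0, and SSE2 had −0.51 and 0.42, on opposite sides of it.

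Among the chaperones that sit on the ribosome and receive new chains, SSB2 (YNL209W), an Hsp70, had 0.79 and 1.48 at 6 h. SSZ1 (YHR064C), an Hsp70-like protein, had 1.09 and 1.21. ZUO1 (YGR285C), the Hsp40 in a complex with SSZ1, had 0.19 and 0.30, nearer 0 than SSB2 and SSZ1. SSB1 (YDL229W), the near-identical copy of SSB2, had no value at 6 h. At 4 h it had −0.22 and −0.05, where SSB2 had 0.15 and −0.22. SSB1 and SSB2, SSA1 and SSA2, and HSP82 and HSC82 are close copies whose cDNA can bind each other's spots, so the separate values of such a pair are uncertain.

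HSP104 (YLL026W), which pulls proteins out of aggregates together with Hsp70, had 1.49 and 1.47 at 6 h, or 2.79-fold. HSP42 (YDR171W), a small heat shock protein that collects unfolded proteins, had −0.65 and −0.63. Their arrays agreed closely, with SDs of 0.02 for both, and the genes stood on opposite sides of 0. At 4 h HSP104 had −0.47 and 0.11 and HSP42 had 0.09 and 0.03.

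The Hsp90 genes both lay above 0 at 6 h. HSP82 (YPL240C), the heat-inducible copy, had 1.03 and 1.15, and HSC82 (YMR186W), the constitutive copy, had 0.49 and 0.35. HSP82 stood above HSC82 by 0.54 and 0.80 on the arrays, a difference of 0.67 ± 0.19, and SSA1 above SSA2 by 0.56 and 0.57. Both differences were larger than the spread of the arrays, in 1 pair of RNA samples. Both turned sign when each gene was set against genes of like length on its own chromosome, called matched genes. HSP82 minus HSC82 was then −1.10 ± 0.08 and SSA1 minus SSA2 −0.87 ± 0.35. At 4 h HSP82 and HSC82 differed by −0.06 ± 0.26, within that spread, and at 2 h by 0.10 ± 0.47.

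The cochaperones of Hsp90 lay on both sides of 0 at 6 h. Of 6 measured, 2 were above 0 on both arrays (33.3%, against 39.4% of all genes) and 4 below (66.7%, against 48.3%), with a median of −0.50. Relative to matched genes the median turned to 0.11, with 3 above (50%, against 36.3%) and 2 below (33.3%, against 38.0%). STI1 (YOR027W) had the highest mean of any chaperone gene, at 1.27 and 2.12, an SD of 0.60 between its arrays. At 2 h it had 0.35 and −0.22, on opposite sides of 0. CDC37 (YDR168W), which brings protein kinases to Hsp90, had 0.61 and 0.41. AHA1 (YDR214W), an activator of the Hsp90 ATPase, had −0.81 and −0.65, and its relative HCH1 (YNL281W) had −1.14 and −1.37, the lowest mean among the chaperone genes. SBA1 (YKL117W), the yeast p23 protein, had −0.53 and −0.83, and CPR6 (YLR216C), a cyclophilin, had −0.30 and −0.34. CNS1 (YBR155W), an essential cochaperone, had no value at 6 h and had −0.16 and −0.07 at 4 h.

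The chaperones of the mitochondrial matrix were also mixed. HSP60 (YLR259C), which forms the folding chamber, had 0.88 and 1.26 at 6 h, whereas HSP10 (YOR020C), its lid, had −1.27 and −1.02. HSP78 (YDR258C), the mitochondrial relative of Hsp104, had 1.17 and 1.04. MDJ1 (YFL016C), the matrix Hsp40, had 0.90 and 0.78, and SSC1 (YJR045C), the main matrix Hsp70, had 0.48 and 0.53. ECM10 had 1.51 on its only array. The median of the 5 genes with a pair of values was 0.84, and 0.22 relative to matched genes. At 4 h HSP60 had −0.19 and −0.18, HSP10 had 0.27 and 0.02, and HSP78 had −0.64 and 0.00.

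The CCT ring folds actin and tubulin and is built of 8 different subunits in equal number. All 8 lay above 0 on both arrays at 6 h (100%, against 39.4% of all genes). Their median was 0.73 and their means ranged from 0.18 to 1.23. CCT3 (YJL014W) was highest with 1.08 and 1.38. CCT7 (YJL111W) had 1.08 and 0.89 and CCT6 (YDR188W) had 1.06 and 0.90. CCT4 (YDL143W) had 0.62 and 0.89, CCT2 (YIL142W) had 0.44 and 0.96, and CCT8 (YJL008C) had 0.68 and 0.50. TCP1 (YDR212W), which encodes the first subunit, had 0.11 and 0.39, and CCT5 (YJR064W) had 0.16 and 0.21. CCT3 stood above TCP1 and CCT5 on both arrays with no overlap, while CCT7 and CCT6, neighbours in this order, differed by less than their spread. The subunit genes are of nearly equal coding length, 1584 to 1707 bp. The 158 other genes in that length range had a median of 0.55 (SD 0.54) at 6 h. The median of the subunits relative to matched genes was 0.24. At 4 h 4 of the 8 lay below 0 on both arrays (50%, against 17.5% of all genes) and none above. Relative to matched genes 1 of the 8 did (12.5%, against 19.2%), with opposite signs on the arrays for the other 7. At 2 h 2 of the 6 measured lay above 0 on both arrays (33.3%, against 16.8%) and none below.

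Among the chaperone genes with 1 sign on both arrays at 6 h, those below 0 were shorter than those above. The 7 genes below 0 on both arrays were all 1128 bp or shorter, and the 25 genes above 0 were all 1302 bp or longer. SIS1, with opposite signs, is 1059 bp long. Among all genes 72.7% of the 1936 genes up to 1128 bp lay below 0 on both arrays and 70.7% of the 1626 genes from 1302 bp lay above. These 2 lengths were read from the chaperone genes after their values were seen, so the shares over all genes are not a like comparison. The part of length in the 6 h values was not tested. Spearman's correlation of the 6 h ratio with coding length was 0.76 across the 33 chaperone genes and 0.63 across all 3921 genes with a length. Both are descriptions across genes, which share their RNA samples and arrays. At 4 h the correlation was −0.50 across 36 chaperone genes and −0.29 across all genes, but on the chaperone genes' separate arrays it was −0.63 on replicate 1 and 0.20 on replicate 2. At 2 h it was 0.28 and 0.15.

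Among genes as long as those of Hsp70 and Hsp90 the 6 h ratio also differed between chromosomes. Among other genes of 1900 to 2200 bp, the 116 on chromosomes X to XIII had a median of −0.57 (SD 0.51) at 6 h and the 96 on the other chromosomes a median of 1.17 (SD 0.77). This split was chosen after the values were seen. SSA2 on chromosome XII, SSC1 on X and HSC82 on XIII, at 1.06, 0.50 and 0.42, lay above the first of these medians and below the second. SSA1, SSA4, SSE1, SSE2 and HSP82 lie on other chromosomes and were at 1.09 to 1.68.

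**Figure D3:**
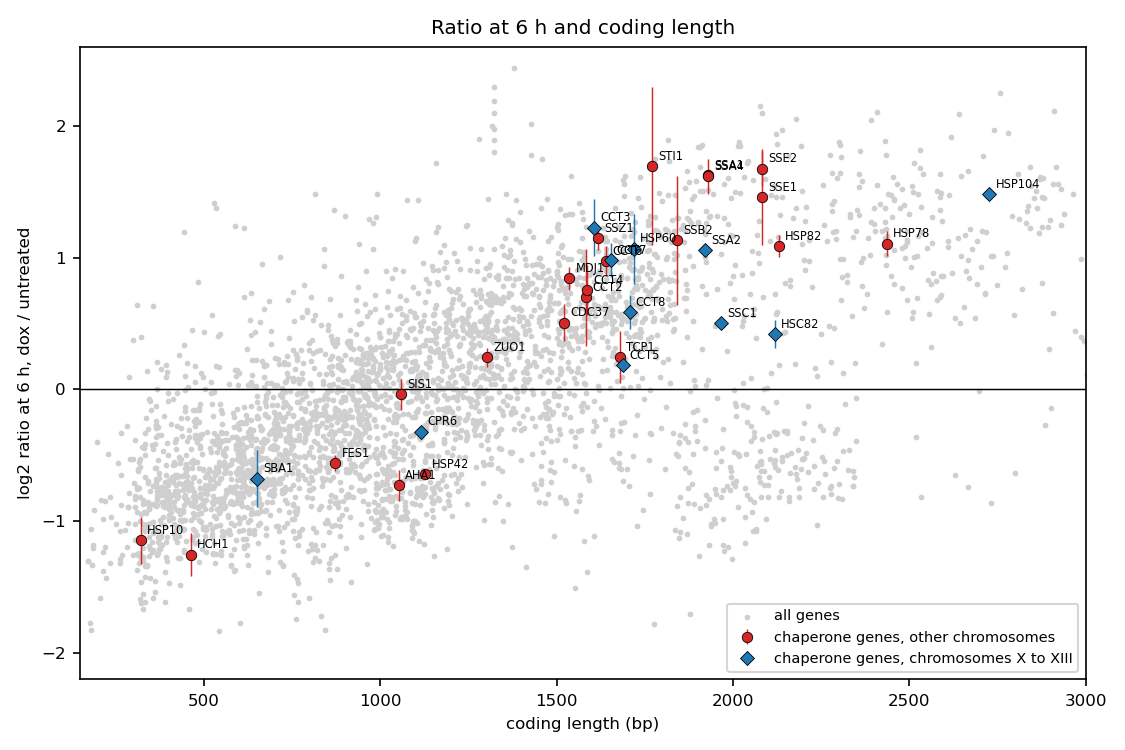
Log2 ratio at 6 h (vertical axis, mean of 2 arrays) against coding length in bp (horizontal axis) for all genes with a length within the axes (grey) and for the 33 chaperone genes, with diamonds for chromosomes X to XIII and circles for the others. Bars show the SD of the 2 arrays. Chaperone genes up to 1128 bp lie below or at 0 and those from 1302 bp above, and SSA2, SSC1 and HSC82 lie below the other chaperone genes of their length.

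Each value was also set against the median, on the same array, of 20 matched genes, which are those of its chromosome closest to it in coding length. On small chromosomes the match on length was loose. At 6 h the matched genes of SSA1 (1929 bp, chromosome I) were 1254 to 2565 bp long and those of CCT2 (1584 bp, chromosome IX) 1278 to 1893 bp. The median of the 33 chaperone genes at 6 h was then 0.22 instead of 0.76, with 0.15 on replicate 1 and 0.30 on replicate 2. On both arrays 19 lay above their matched genes (57.6%, against 36.3% of all genes) and 10 below (30.3%, against 38.0%). Past 2-fold there were 3 chaperone genes higher (9.09%, against 2.7% of all genes) and none lower (against 2.91%). Past 1.5-fold there were 11 higher (33.3%, against 10% of all genes) and 2 lower (6.06%, against 10%). Spearman's correlation of these matched values with coding length was still 0.52 across the 33 chaperone genes, against 0.01 across all genes. On the chaperone genes' separate arrays it was 0.45 on replicate 1 and 0.57 on replicate 2. The matched values of the chaperone genes are therefore not free of a length trend.

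The 3 genes past 2-fold relative to matched genes were SSA2 at 1.60 ± 0.09, SSC1 at 1.24 ± 0.04 and HSC82 at 1.06 ± 0.13, and HSC82 was at 0.97 on replicate 2. SSA2 lay above 19 of its 20 matched genes on either array, HSC82 above 19 and 18, and SSC1 above 18 and 19. All 3 lie on chromosomes X to XIII, where their matched genes had low ratios, with averaged medians of −0.54 for SSA2, −0.74 for SSC1 and −0.64 for HSC82. As deposited, SSC1 and HSC82 did not pass 2-fold. With a single curve on length for all chromosomes in place of matched genes, 3 of 33 chaperone genes also passed 2-fold, all higher. Among all 3921 genes 126 passed 2-fold higher with that curve and 240 lower. The 3 chaperone genes were others, STI1 at 1.13, SSA1 at 1.01 and SSA4 at 1.01. On that scale SSA2 was at 0.45, SSC1 at −0.13 and HSC82 at −0.29. The lists of the curve and of the matched genes thus held no gene in common. The curve and the matched genes differ in the use of the chromosome and in how length is fitted, and which of these moved the values was not tested.

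The other 8 genes past 1.5-fold relative to matched genes spanned several roles. STI1 was at 0.93 ± 0.46, CCT6 at 0.85 ± 0.18, HSP104 at 0.78 ± 0.44, CCT4 at 0.78 ± 0.11, SSA1 at 0.72 ± 0.26, CCT3 at 0.72 ± 0.28, SSA4 at 0.66 ± 0.05 and SSE2 at 0.66 ± 0.15. SSA1, SSA4, SSZ1 and CCT6 lay above all 20 of their matched genes on replicate 1, and above 15, 15, 16 and 18 of them on replicate 2. HSP82 was at −0.04 ± 0.04, HSP78 at 0.05 ± 0.02 and SSB2 at 0.10 ± 0.35, so these genes, all past 2-fold as deposited, were near the median of their matched genes. HSP42 at 0.02 ± 0.05 and SBA1 at 0.08 ± 0.25, below 0 as deposited, were also near it. AHA1 lay above its matched genes on both arrays, at 0.14 ± 0.05. HCH1 at −0.59 ± 0.20 and FES1 at −0.41 ± 0.05 remained below on both arrays, with 0 and 1 of 20 matched genes lower than HCH1.

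Within the CCT ring the matched values spread further than the deposited ones, from −0.61 for CCT5 to 0.85 for CCT6. The matched genes themselves differed, with averaged medians of −0.02 for CCT4, 0.125 for CCT6 and 0.79 for CCT5. With the length curve CCT4 was at 0.24, CCT6 at 0.435 and CCT5 at −0.37. What the matched genes add to the spread within the ring was not tested. CCT6, CCT4, CCT3 and CCT7 lay above their matched genes on both arrays (50%, against 36.3% of all genes). CCT5, TCP1 and CCT8 lay below (37.5%, against 38.0%). HSP60 and HSP10, on opposite sides of 0 as deposited, were at 0.22 ± 0.09 and −0.29 ± 0.001. At 4 h the matched values of the 36 genes had a median of −0.08. Again 15 lay below 0 on both arrays (41.7%, against 19.2% of all genes) and 3 above (8.33%, against 18.7%). The 15 were not all the same genes as before. SSB1, SSZ1, TCP1, CCT3 and CCT6 left the list as deposited, and HSP104, HSP82, AHA1, HSP78 and MDJ1 joined it. None of the 36 passed 2-fold, against 0.0675% of all genes lower. With the length curve 11 of the 36 lay below 0 on both arrays (30.6%, against 18.6% of all genes) and 2 above (5.56%, against 18.0%). At 2 h the matched median was 0.02, with 3 genes above 0 on both arrays (10.7%, against 17.3%) and 4 below (14.3%, against 17.4%). None passed 2-fold or 1.5-fold, against 0.051% of all genes past 2-fold lower and 0.051% past 1.5-fold higher.

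**Figure D4:**
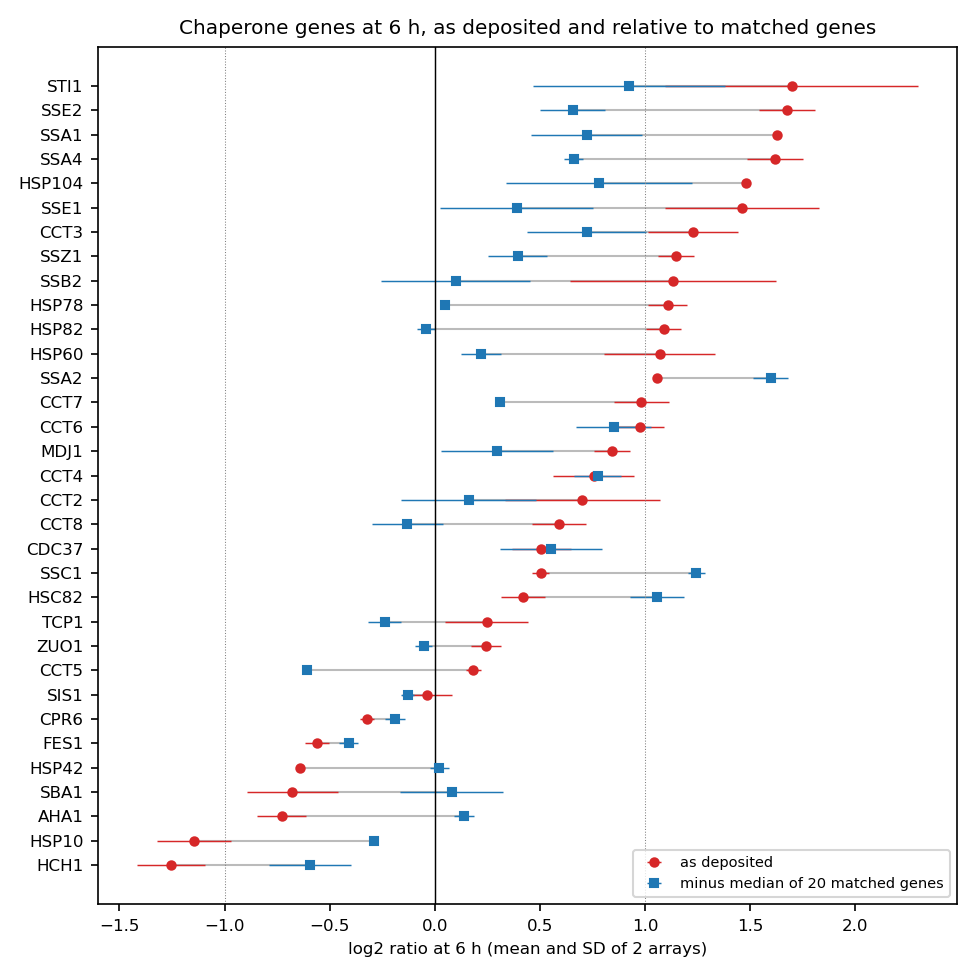
Log2 ratios at 6 h of the 33 chaperone genes as deposited (red circles) and after subtraction of the median of 20 genes matched on length and chromosome (blue squares), with the SD of the 2 arrays as bars and 2-fold as dotted lines. Most red points lie to the right of the blue ones, and SSA2, SSC1 and HSC82 move the other way, past 1.

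Over the 3 times together no chaperone gene passed a test. The limma test of the mean of the 3 time values against 0 called none of the 26 chaperone genes tested, with limma adjusted p-values from 0.806 to 0.883 and none with an unadjusted p below 0.05, where it called 1 of 3391 genes in all (0.0295%), or 10 by unadjusted p (0.295%). SSE2 had the highest mean, 0.62 with a 95% interval from −0.21 to 1.46, and HCH1 the lowest, −0.39 from −1.11 to 0.33. None of the 26 genes was on 1 side of 0 on all 6 arrays, against 34 genes above (1.0%) and 33 below (0.973%) among all 3391. The limma test of a slope on hours through 0 also called none, where it called 2 genes in all (0.059%), with limma adjusted p-values from 0.306 to 0.763. As deposited, 11 of 33 chaperone genes lay below 0 on both arrays at 4 h and above 0 on both at 6 h. The share over all genes was 11.6%. Another 2 chaperone genes turned the opposite way, against 12.1% of all genes. Unadjusted p-values below 0.05 in the slope test belonged to 6 of the 26 (23.1%, against 14.3% of all genes), namely SSA4, SSB2, SSZ1, SSE2, HSP104 and HCH1. With 4 h left out the slope test called 20 of the 26 (76.9%, against 51.2% of all genes), 14 higher and 6 lower, from 2 time values. The 3 pairs of RNA samples differ in time, so change between times counts as error in these tests, which say nothing of the spread between cultures.

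Of 41 further chaperone and heat shock genes listed by function, 40 were found in the table, 26 were tested over the times, and none passed either limma test. Their median at 6 h was −0.48 over 36 measured genes, with 11 above 0 on both arrays (30.6%, against 39.4% of all genes) and 22 below (61.1%, against 48.3%). Relative to matched genes the median was −0.11, with 10 above (27.8%, against 36.3%) and 13 below (36.1%, against 38.0%). None passed 2-fold higher, against 9.81% of all genes, and 7 passed 2-fold lower, against 8.08%, but relative to matched genes none passed 2-fold either way. The 6 genes of prefoldin, which hands actin and tubulin to the CCT ring, were all below 0 on both arrays with a median of −0.97, where CCT itself had 0.73. Of these, YKE2 was at −1.19 ± 0.35, GIM4 at −1.16 ± 0.31 and PAC10 at −1.02 ± 0.15. Prefoldin genes are short, at most 600 bp, and relative to matched genes their median was −0.13. EGD1, of the nascent chain complex, was at −1.16 ± 0.01, SNL1, an exchange factor, at −1.11 ± 0.16, PAM18, a J protein of the import motor, at −1.23 ± 0.04, and SSQ1, an iron-sulfur cluster Hsp70, at −1.23 ± 0.13. SSQ1 is 1974 bp long and lies on chromosome XII, as SSA2 does. It was at −0.73 relative to matched genes, where SSA2 was at 1.60. HSP30, a plasma membrane protein, had the mean of largest size over the times among these genes, 0.43.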

How the data were processed

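Values were the log2 ratios deposited by the authors, 1 per open reading frame and array, with no intensities, so depth is unknown and precision rests on how many arrays there are. Per the labels, the authors dropped small spots (below 120 µm) and dim ones (Cy3 and Cy5 below 100 units). How values were normalized and swapped arrays turned is not given in the sources used here. For 1 of the 2 h arrays the labels give Cy3 for each channel, and it was treated as dye-swapped. Of 6212 identifiers, 5662 matched a gene name in RefSeq's R64 table by systematic name, which also gave coding lengths (97.1% multiples of 3). Chromosomes were read from systematic names. Sequences were not used here.

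The dye swaps of a time were averaged. Limma 3.58.1 in R 4.3.3 (lmFit, eBayes) tested the mean over 3 times and the slope on hours over the 3391 genes with all 6 values, two-sided, with Benjamini-Hochberg adjustment at 0.05, after a check on simulated data. At single times, genes with a mean log2 ratio of at least 1 in size and 1 sign on both arrays were counted. All 39 chaperone genes were named, and of 41 further genes those past 2-fold at any time and the 4 with the largest mean over the times. Genes, lists and tests were chosen with earlier results of these data known. Alternatives were centring, scaling, a lowess curve on length (span 0.3), matched genes, turned signs, a looser filter, another variance model, single arrays as units, omission of an array or a time, and other fold rules.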

Additional observations from a re-analysis of the deposited data

Results flagged for a closer look

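For 13 chaperone genes both arrays of 4 h lay on 1 side of 0 and both arrays of 6 h on the other, and this difference between times was not tested. Of 33 genes with all 4 values, 11 turned from below to above 0, against 11.6% of 4021 genes in all, and 2 from above to below, against 12.1%. The mean log2 ratio was higher at 6 h than at 4 h by 2.03 for STI1, 1.75 for SSE1, 1.44 for CCT3, 1.26 for HSP60, 1.24 for SSZ1, 1.14 for SSA2, 1.06 for CCT6, 0.76 for CCT8, 0.58 for SSC1, 0.53 for HSC82 and 0.34 for TCP1. The 6 h minus 4 h difference was −1.29 for HSP10 and −0.70 for HSP42, the 2 genes that went from above to below. CCT6 and CCT8 also turned between 2 h and 4 h, with 4 h minus 2 h differences of −0.17 and −0.39. The 4 h means of these genes lay between −0.34 for STI1 and 0.15 for HSP10. All these values are as deposited. Relative to matched genes, SSA2, SSE1, STI1, HSP60, SSC1, HSC82 and HSP10 turned the same way on both arrays. SSZ1, TCP1, CCT3, CCT6, CCT8 and HSP42 did not.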

How the results depend on the processing

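Of 80 recomputed counts and medians, 72 stayed within 1.5 times the count or within the spread of the array medians. Most of the 72 were counts of 0 that stayed 0. At 2 h the spread of the array medians, 0.11, was larger than the median itself. The 8 that moved were the slope count without 4 h and otherwise counts or medians of 6 h, so the tally does not speak for the 6 h values. The mean test called 0 chaperone genes under every alternative run, and the slope test called 0 under each except the fit without 4 h, which called 20. Taking the 6 arrays as units with the replicate block also called 0 in both tests. Deviations of same-numbered arrays correlated with r = 0.57 between 2 h and 4 h, where a number has the same dye orientation, and with −0.71 between 2 h and 6 h and −0.56 between 4 h and 6 h, where it has the opposite one. The numbers were therefore not taken to pair the samples, and the block also carries dye. The 15 genes past 2-fold at 6 h became 0 with arrays scaled to the same spread, 3 with the length curve removed (SSA1, SSA4, STI1), 3 relative to matched genes (SSA2, SSC1, HSC82), 24 at 1.5-fold, and 13 where each array had to pass, a rule added after seeing the data. Among all genes 17.9% passed 2-fold either way at 6 h as deposited, and 459 of 4160 where each array had to pass. With the length curve removed 126 of 3921 passed higher and 240 lower. Relative to matched genes 2.7% passed higher and 2.91% lower. At 1.5-fold 21.1% passed higher and 28.1% lower. The 6 h median of 0.76 became 0.33 with arrays scaled, 0.24 with the length curve removed and 0.22 relative to matched genes. Relative to matched genes the 6 h means of HSP82, ZUO1, TCP1, CCT5 and CCT8 turned from above to below 0. HSP82 was then at −0.041 and CCT5 at −0.609. The means of HSP42, AHA1 and SBA1 turned from below to above 0. Scaling shrinks the 6 h arrays by construction, for all genes alike, and the share of all genes past 2-fold is not given here. The count of 0 with scaled arrays is therefore not a result about the chaperone genes. With the signs of the Cy3 arrays turned at 2 and 4 h, the medians were 0.07 and −0.04. Leaving out a replicate gave medians of −0.07 to 0.11 at 2 h, −0.15 to −0.04 at 4 h and 0.79 to 0.89 at 6 h, and 15 to 16 genes past 2-fold at 6 h.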
